A study of Homo sapiens with 6 samples.

Results

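The spindle assembly checkpoint holds a dividing cell in mitosis until every chromosome is attached to the spindle. Its transcripts were followed here through 10 genes: MAD2L1, MAD1L1, MAD2L1BP, BUB1, BUB1B, BUB3, TTK, ZW10, KNTC1 and ZWILCH. The genes were chosen by name, and each matched 1 of the 60617 Ensembl identifiers in the deposited count table. All 10 were abundant enough to be tested. RNA came from NCI-H1299, an established human lung cancer line labelled as lung adenocarcinoma. There were 3 control libraries, titled Puro and given the genotype WT, and 3 libraries titled Sh1, given the genotype FuHsi knockdown. Every sample was of the same line and grown in the same way, with no time point, dose or clone named. The series set out to learn what FuHsi does in the nucleolus. Nothing in the labels says that the libraries of a group came from separate cultures, so a p-value here weighs a difference against library-to-library spread that may be technical.

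An unattached kinetochore, the protein plate on a centromere that binds spindle fibres, is the source of the checkpoint signal. The kinase TTK (also called MPS1) marks the kinetochore protein KNL1, and BUB3 brings BUB1 and BUB1B (BubR1) to the marked sites. MAD1L1 anchors MAD2L1 there and converts it to a form that seizes CDC20. MAD2L1, BUB1B, BUB3 and CDC20 together make the mitotic checkpoint complex, which blocks the anaphase-promoting complex, the ubiquitin ligase that starts chromosome separation. ZW10, KNTC1 (Rod) and ZWILCH form the RZZ complex, which keeps MAD1L1 and MAD2L1 at the kinetochore and recruits dynein. MAD2L1BP (p31comet) works with the ATPase TRIP13 to take MAD2L1 out of the complex once attachment is complete. Several of these genes are made mainly late in the cell cycle, from promoters that carry a CHR element (cell cycle genes homology region).

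Library totals ran from 30735547 to 34306849 counts in control and from 24231515 to 27900051 in knockdown, so all control libraries were deeper. No row carries the name FuHsi, and the level of the target is not analysed here. Levels are given as CPM, the count of a gene relative to its library total after TMM scaling (trimmed mean of M values), which evens out differences in RNA composition. Epithelial markers summed to 823.8 to 833.7 CPM in control and 612.9 to 660.2 CPM in knockdown. Nearly all of it came from the keratins KRT8 (mean 494.2 to 320.0 CPM) and KRT18 (334.6 to 320.3 CPM). KRT19, EPCAM and CDH1 had at most 16, 14 and 8 counts in a library. Of 5 lung adenocarcinoma markers, SFTPA1 and SFTPC had no count, and the 5 together reached 0.0918 to 0.450 CPM in control and 0.705 to 1.05 CPM in knockdown. Leukocyte markers summed to at most 0.762 and 1.64 CPM, endothelial markers to at most 2.34 and 3.65 CPM and fibroblast markers to at most 2.87 and 2.98 CPM in control and knockdown. The part of these differences in the results was not tested.

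The promoters of MAD2L1, BUB1B and BUB1 are shown because these are the genes with the largest fall, the next largest, and a paralogue of BUB1B with a much smaller one. Each is the RefSeq window of 250 bases before and 50 after the annotated start, on GRCh38.p14, read along the gene. Capitals mark matches on either strand to the CHR word TTTGAA, the CCAAT box word CCAAT or the E2F-type word TTCCCGC. MAD2L1 lies at chr4:120066799-120067098 on the minus strand, BUB1B at chr15:40160819-40161118 on the plus strand and BUB1 at chr2:110678014-110678313 on the minus strand.
MAD2L1: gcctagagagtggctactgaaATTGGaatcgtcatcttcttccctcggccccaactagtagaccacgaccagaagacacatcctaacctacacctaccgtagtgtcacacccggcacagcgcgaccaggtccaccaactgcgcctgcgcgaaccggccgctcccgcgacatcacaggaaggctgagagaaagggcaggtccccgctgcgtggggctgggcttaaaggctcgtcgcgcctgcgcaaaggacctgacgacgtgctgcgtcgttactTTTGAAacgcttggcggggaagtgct
BUB1B: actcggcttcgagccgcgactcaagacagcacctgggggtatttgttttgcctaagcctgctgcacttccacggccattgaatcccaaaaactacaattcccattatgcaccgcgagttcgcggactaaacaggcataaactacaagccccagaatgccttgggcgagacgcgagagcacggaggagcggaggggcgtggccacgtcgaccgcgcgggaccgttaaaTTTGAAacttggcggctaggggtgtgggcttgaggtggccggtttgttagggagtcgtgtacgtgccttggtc
BUB1: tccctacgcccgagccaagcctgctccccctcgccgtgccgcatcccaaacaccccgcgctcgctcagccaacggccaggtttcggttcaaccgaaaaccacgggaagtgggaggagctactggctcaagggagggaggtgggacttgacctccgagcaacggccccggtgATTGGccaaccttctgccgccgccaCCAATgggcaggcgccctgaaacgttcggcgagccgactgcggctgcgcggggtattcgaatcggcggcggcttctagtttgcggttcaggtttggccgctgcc
MAD2L1 and BUB1B each hold 1 TTTGAA close to the start, at 25 bases after it in MAD2L1 (position 25) and 23 before it in BUB1B (position -23). BUB1 holds no TTTGAA and a pair of CCAAT words at -79 and -54, on opposite strands. No other spelling of the CHR was searched, so BUB1 may still hold such an element. Windows were matched for 7 of the 10 genes, with a pair of windows for MAD2L1BP, and not for BUB3, TTK or KNTC1. TTTGAA was in at least 1 window of 4 of these 7 genes, the others being ZW10 at -224 and MAD2L1BP at -117. It was in 13.8% of 10828 tested protein-coding genes with a window, and in 39.5% of 43 pathway partners and 2 of 4 cycling-cell markers with one. CCAAT was in 4 of 7 genes, against 43.4% of all tested genes, 62.8% of the partners and 4 of 4 markers. TTCCCGC was in 1 of 7, ZW10, against 12.6%, 20.9% and 1 of 4. The 3 words do not overlap one another in these windows. A match describes letters and not a bound site.

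Most of the checkpoint genes were lower in knockdown, and by very unequal amounts. MAD2L1 lost most of its transcript, BUB1B was nearer 2-fold lower, BUB3 fell less, and BUB1, TTK, ZW10 and ZWILCH fell slightly. KNTC1 and MAD1L1 were not called, and MAD2L1BP was called slightly higher. Calls were made at an adjusted p (Benjamini-Hochberg) under 0.05 in edgeR's quasi-likelihood test, and by them 7 of the 10 genes were lower and 1 was higher. In CPM the groups did not overlap in 8 genes, 7 of them lower, against 65.3% of all tested genes in either direction and 32.3% lower. Of all 17223 tested genes 30.9% fell and 30.7% rose, together 61.6%, so the plain call separates few genes from the rest. These shares are not matched by abundance. In the most abundant of 5 equal classes, which held BUB1, BUB1B, BUB3, TTK, KNTC1 and ZWILCH, 60.3% were called lower. The median log2 fold change (knockdown over control) of the 10 genes was -0.24, and that of all tested genes was 0.03. Tested against a minimum change of 1.5-fold (edgeR's glmTreat), 2 of 10 were lower, MAD2L1 and BUB1B, against 6.12% of all tested genes. The same 2 were called and lower by at least 2-fold, against 3.12%, with BUB1B at the edge of that fold. It fell short of it with upper-quartile factors (-0.94), with library size alone (-0.85) and without control replicate 1 (-0.98), control replicate 2 (-0.9986) or knockdown replicate 3 (-0.98), which leaves MAD2L1 alone. As a share of all counts, the 10 genes together went from 0.112% ± 0.00121 to 0.0911% ± 0.00187 (mean ± SD, n = 3).

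Scaling bears on the small changes. With library size as the only scaling, the median log2 fold change of all tested genes was higher by 0.15. The 10 genes then gave 5 falls and 3 rises: ZW10 (-0.06) and ZWILCH (-0.04) were no longer called, and KNTC1 (0.17) and MAD1L1 (0.53) were called higher. Over all 17223 tested genes, 3855 were called lower and 6986 higher with this scaling. MAD2L1, BUB1B, BUB3, BUB1 and TTK stayed called lower in all 13 alternatives.

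**Figure D1:**
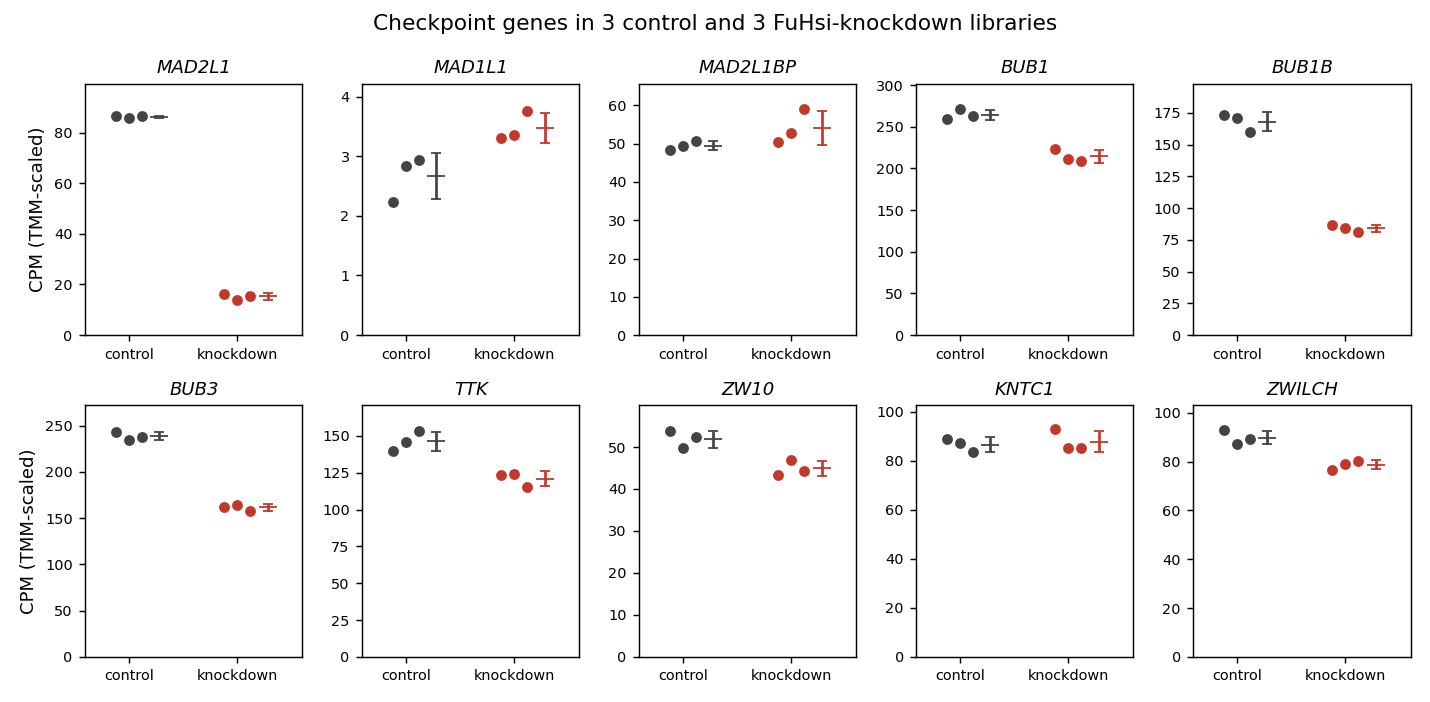
Level of each checkpoint gene in CPM (vertical axes, TMM-scaled, each starting at 0) in every control (grey) and knockdown (red) library; points are libraries and bars are mean ± SD of 3. MAD2L1 drops from about 86.3 to 15.3 CPM, while KNTC1 and MAD2L1BP overlap between the groups.

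MAD2L1, the soluble inhibitor of CDC20, is at GRCh38 chromosome 4, 120055608 to 120067074, minus strand. Its level was 86.6, 85.9 and 86.4 CPM in control replicates 1 to 3. It was 16.4, 14.0 and 15.5 CPM in knockdown replicates 1 to 3. The control libraries were nearly equal, and every knockdown library was far below them. The mean went from 86.3 ± 0.395 to 15.3 ± 1.25 CPM (SD, n = 3), so that 17.8% of the control level was left. The log2 fold change was -2.49 ± 0.06 (SE), and edgeR's quasi-likelihood test gave it an adjusted p of 2.16e-40. Among all tested genes this was the ninth lowest value (rank 9 of 17223). Across the alternatives it ran from -2.55 to -2.34. In bulk RNA, fewer cells in the phases that make a transcript and less transcript per cell cannot be told apart.

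MAD1L1, the anchor of MAD2L1 at kinetochores (chromosome 7, 1815793 to 2233243, minus strand), had few reads. Counts were 73, 92 and 85 in control and 98, 85 and 96 in knockdown. In CPM these were 2.23, 2.84 and 2.94 against 3.31, 3.35 and 3.76. The knockdown values were all above the control values, yet the gene was not called, at a log2 difference of 0.38 (95% interval -0.02 to 0.78; adjusted p = 0.0930 in edgeR's quasi-likelihood fit). Its adjusted p ran from 0.0173 to 0.316 over the alternatives. In GENCODE v29 none of its exonic bases is shared with another gene. The annotation that the authors counted with is not given in the sources used here, and 2075 of its identifiers are not in that release, so the part of gene overlap in this low count was not tested.

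MAD2L1BP, which helps to silence the checkpoint (chromosome 6, 43629540 to 43640952, plus strand), went the other way from MAD2L1. It was at 48.4, 49.3 and 50.6 CPM in control and 50.5, 52.8 and 59.1 CPM in knockdown. The groups overlap, since knockdown replicate 1 lies below control replicate 3. The log2 fold change was 0.13 ± 0.06 (SE), just inside the threshold at an adjusted p of 0.0431 (edgeR, quasi-likelihood). The call was lost in 9 of 13 alternatives, among them leaving out any 1 library but knockdown replicate 1 (0.06 to 0.14, the lowest without knockdown replicate 3).

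The BUB genes encode the scaffold that reads the TTK mark. BUB1B, a pseudokinase and a core subunit of the mitotic checkpoint complex (chromosome 15, 40161023 to 40221136, plus strand), was at 173.7, 170.6 and 160.1 CPM in control. It was at 86.9, 84.1 and 80.8 CPM in knockdown. The groups were far apart, and the log2 fold change was -1.002 ± 0.04 (SE), with 2.05e-29 as its adjusted p in edgeR's quasi-likelihood fit. It shares 10.2% of its exonic bases with BUB1B-PAK6, a readthrough gene that had no count in any library.

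BUB3, the adaptor that carries both BUB1 and BUB1B (chromosome 10, 123154277 to 123170467, plus strand), was at 243.0, 234.8 and 237.9 CPM in control. It was at 162.2, 164.7 and 157.9 CPM in knockdown, without overlap. The log2 fold change was -0.56 ± 0.04 (SE). BUB1, the kinase that marks centromeric histone H2A (chromosome 2, 110637698 to 110678114, minus strand), was at 258.8, 271.1 and 263.4 CPM in control. It was at 223.2, 211.4 and 208.4 CPM in knockdown, again without overlap. Its log2 fold change was -0.30 ± 0.04 (SE), and was -0.15 with library size alone.

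TTK, the kinase that starts the signal (chromosome 6, 80003887 to 80042527, plus strand), fell by a similar small amount. It was at 140.1, 145.6 and 153.3 CPM in control and at 123.7, 123.9 and 115.0 CPM in knockdown. The groups did not overlap. The log2 fold change was -0.28 ± 0.04 (SE; edgeR's adjusted p = 4.24e-08), and was -0.12 with library size alone.

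The RZZ subunits moved little. ZW10 (chromosome 11, 113733187 to 113773811, minus strand) was at 53.7, 49.7 and 52.3 CPM in control and at 43.4, 47.0 and 44.4 CPM in knockdown. ZWILCH (chromosome 15, 66504959 to 66550128, plus strand) was at 92.9, 87.4 and 89.3 CPM in control and at 76.8, 78.9 and 80.4 CPM in knockdown. Neither gene's groups overlapped, and the log2 fold changes were -0.21 ± 0.06 for ZW10 and -0.19 ± 0.05 for ZWILCH (SE). ZWILCH shares 10.9% of its exonic bases with LCTL and RPL4.

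KNTC1, the largest RZZ subunit (chromosome 12, 122527246 to 122626396, plus strand), was at 89.0, 87.3 and 83.4 CPM in control and at 92.7, 85.2 and 85.2 CPM in knockdown. The groups overlap. The log2 difference was 0.02 (95% interval -0.07 to 0.11; edgeR's adjusted p = 0.731). On the TMM scale that interval stops well short of the fall of BUB3.

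**Figure D2:**
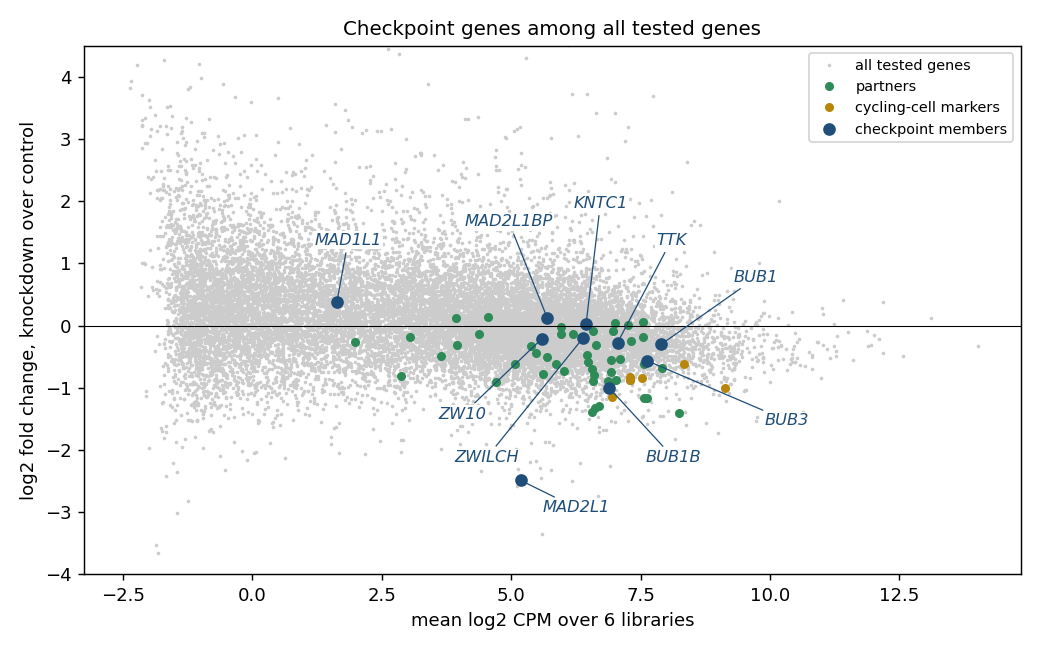
Log2 fold change (vertical axis, knockdown over control) against mean log2 CPM (horizontal axis) for all 17223 tested genes (light grey), with the 10 checkpoint genes (blue), their 47 partners (green) and 6 cycling-cell markers (gold); 37 tested genes lie outside the plotted range. MAD2L1 sits at -2.49, apart from the other 9 checkpoint genes, which lie between -1.002 and 0.38.

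Fold changes across all tested genes varied with abundance. Of 5 equal classes of tested genes by mean log2 CPM, the highest held BUB1, BUB1B, BUB3, TTK, KNTC1 and ZWILCH, and there the median log2 fold change was -0.20 and 60.3% of genes were called lower. The next class held MAD2L1, MAD2L1BP and ZW10, with a median of -0.08 and 45.8% called lower. The fall of ZWILCH (-0.19) is therefore no larger than the median of its class, and those of BUB1 and TTK are close to it.

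Because every library was scaled by 1 factor, the ratio of a pair of these genes inside a library is free of the scaling. The 8 ratios were taken of reads per kilobase of annotated exon, so their absolute values depend on those lengths while their change does not. MAD2L1 per MAD2L1BP, the pair of inhibitor and remover, was at log2 ratios of -0.77, -0.81 and -0.84 in control. It was at -3.23, -3.53 and -3.54 in knockdown, a change of -2.63. MAD2L1 per BUB1B, which meet in the mitotic checkpoint complex, changed by -1.497, and MAD2L1 per MAD1L1 by -2.89.

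Within the BUB group, BUB1B per BUB1 was at log2 ratios of -0.15, -0.24 and -0.29 in control and -0.93, -0.90 and -0.94 in knockdown, a change of -0.70. BUB1B per BUB3 changed by -0.44 and BUB1 per BUB3 by 0.26. Within RZZ, ZW10 per KNTC1 changed by -0.23 and ZWILCH per KNTC1 by -0.21. The groups did not overlap in any of the 8 ratios, and no background share was computed for pairs of genes. By a two-sided exact permutation test each has p = 0.1, which is the smallest that 3 against 3 libraries allow, and 0.1 after adjustment over the 8.

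**Figure D3:**
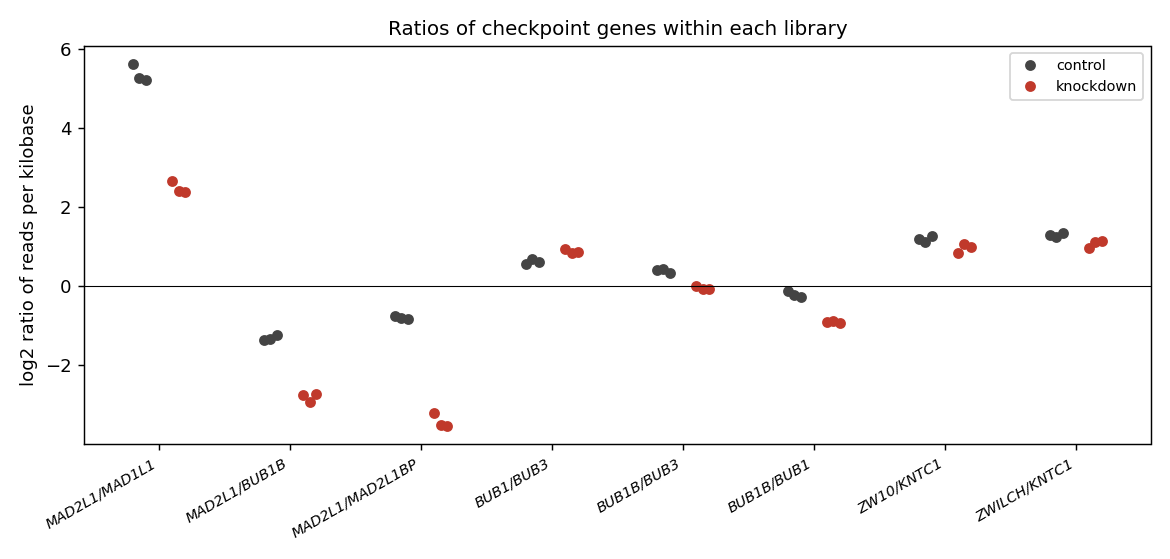
Log2 ratio of reads per kilobase (vertical axis) for 8 pairs of checkpoint genes (horizontal axis) in each control (grey) and knockdown (red) library. The 3 pairs with MAD2L1 on top change by -1.497 to -2.89, and the RZZ pairs by -0.21 and -0.23.

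Order of abundance among the genes was read per kilobase of annotated exon, as scaled CPM. In control BUB1 was highest at 43.8 ± 1.03, followed by BUB1B at 37.6 ± 1.59, TTK at 32.0 ± 1.45 and BUB3 at 28.7 ± 0.499 (SD, n = 3). MAD2L1BP (26.3 ± 0.594), ZWILCH (18.5 ± 0.574), ZW10 (17.3 ± 0.678) and MAD2L1 (15.01 ± 0.0687) came next. KNTC1 was at 7.64 ± 0.254 and MAD1L1 was lowest at 0.369 ± 0.0529. No neighbours in this order overlapped in control.

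In knockdown BUB1 stayed highest at 35.5 ± 1.295 CPM per kilobase, MAD2L1BP and TTK overlapped next (28.8 ± 2.38 and 26.4 ± 1.11), and BUB1B dropped beside BUB3, with overlapping values of 18.8 ± 0.682 and 19.5 ± 0.411 (SD, n = 3). Per kilobase of annotated exon MAD2L1, at 2.66 ± 0.218, fell below KNTC1 at 7.75 ± 0.383. The order leans on the annotated lengths. MAD2L1 and BUB3 have long 3′ UTRs, of 4513 and 6635 bases in the chosen transcripts, and reads inside and outside the UTR cannot be separated in gene counts. Levels of these 2 genes against the other 8 are therefore uncertain. Order among the other 8 depends on the chosen length too. Lengths of the chosen transcripts without the 3′ UTR put control BUB1B at 50.3 ± 2.13 CPM per kilobase (SD, n = 3). That was below TTK at 54.6 ± 2.47 and MAD2L1BP at 56.2 ± 1.27, whereas per kilobase of annotated exon BUB1B was above both. BUB1 stayed highest of these 8 in control, at 78.4 ± 1.84. Length cancels from the change of each gene.

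Partners of the checkpoint genes were mostly lower too. Of 47 tested partners, targets and platform proteins, edgeR called 36 lower and 0 higher (30.9% and 30.7% of all tested genes). The median change was -0.55 on the log2 scale, and 18 fell by more than 1.5-fold by glmTreat (6.12% of all tested genes). The partners were listed with earlier results of these data known. They were not matched to all genes by abundance, and 60.3% of the most abundant class were called lower. With library size alone 32 fell and 6 rose, beside 3855 falls and 6986 rises among all 17223 tested genes. All 5 substrates and regulators of anaphase fell, from CCNB1 (cyclin B1) at -1.41 to ESPL1 (separase) at -0.55, with PTTG1 (securin) at -0.89. All 8 genes of the chromosomal passenger complex, kinases and centromere guards fell, among them PLK1 at -1.29, BIRC5 (survivin) at -1.16 and CDCA8 (borealin) at -0.93.

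Among the 20 genes of the target and its ligase, 14 fell and 0 rose (30.9% and 30.7% of all tested genes). CDC20, the protein that MAD2L1 seizes, went from 304.5 ± 6.80 to 190.5 ± 14.5 CPM (SD, n = 3), a log2 fold change of -0.68. TRIP13, which dismantles the complex with MAD2L1BP, had the largest fall of this role, from 152.9 ± 1.17 to 58.6 ± 4.40 CPM (-1.38). The ubiquitin-conjugating enzymes UBE2C and UBE2S, which serve the ligase, were at -1.33 and -1.17. ANAPC15, a ligase subunit needed for turnover of the checkpoint complex, was at -0.81 but other genes cover 27.1% of its exonic bases. ANAPC1, the largest subunit, was at 0.01 and was not called.

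On the kinetochore side 9 of 14 genes fell and 0 rose (30.9% and 30.7% of all tested genes). SPC25, NUF2 and NDC80, subunits of the microtubule-binding NDC80 complex, were at -0.91, -0.78 and -0.74. SPDL1 (Spindly), the dynein adaptor that RZZ recruits, was at -0.54. KNL1, the platform for BUB3, BUB1 and BUB1B, went from 128.3 ± 4.18 to 120.5 ± 6.35 CPM (SD, n = 3) with overlapping groups and was not called, at -0.09 with edgeR's adjusted p at 0.0582.

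**Figure D4:**
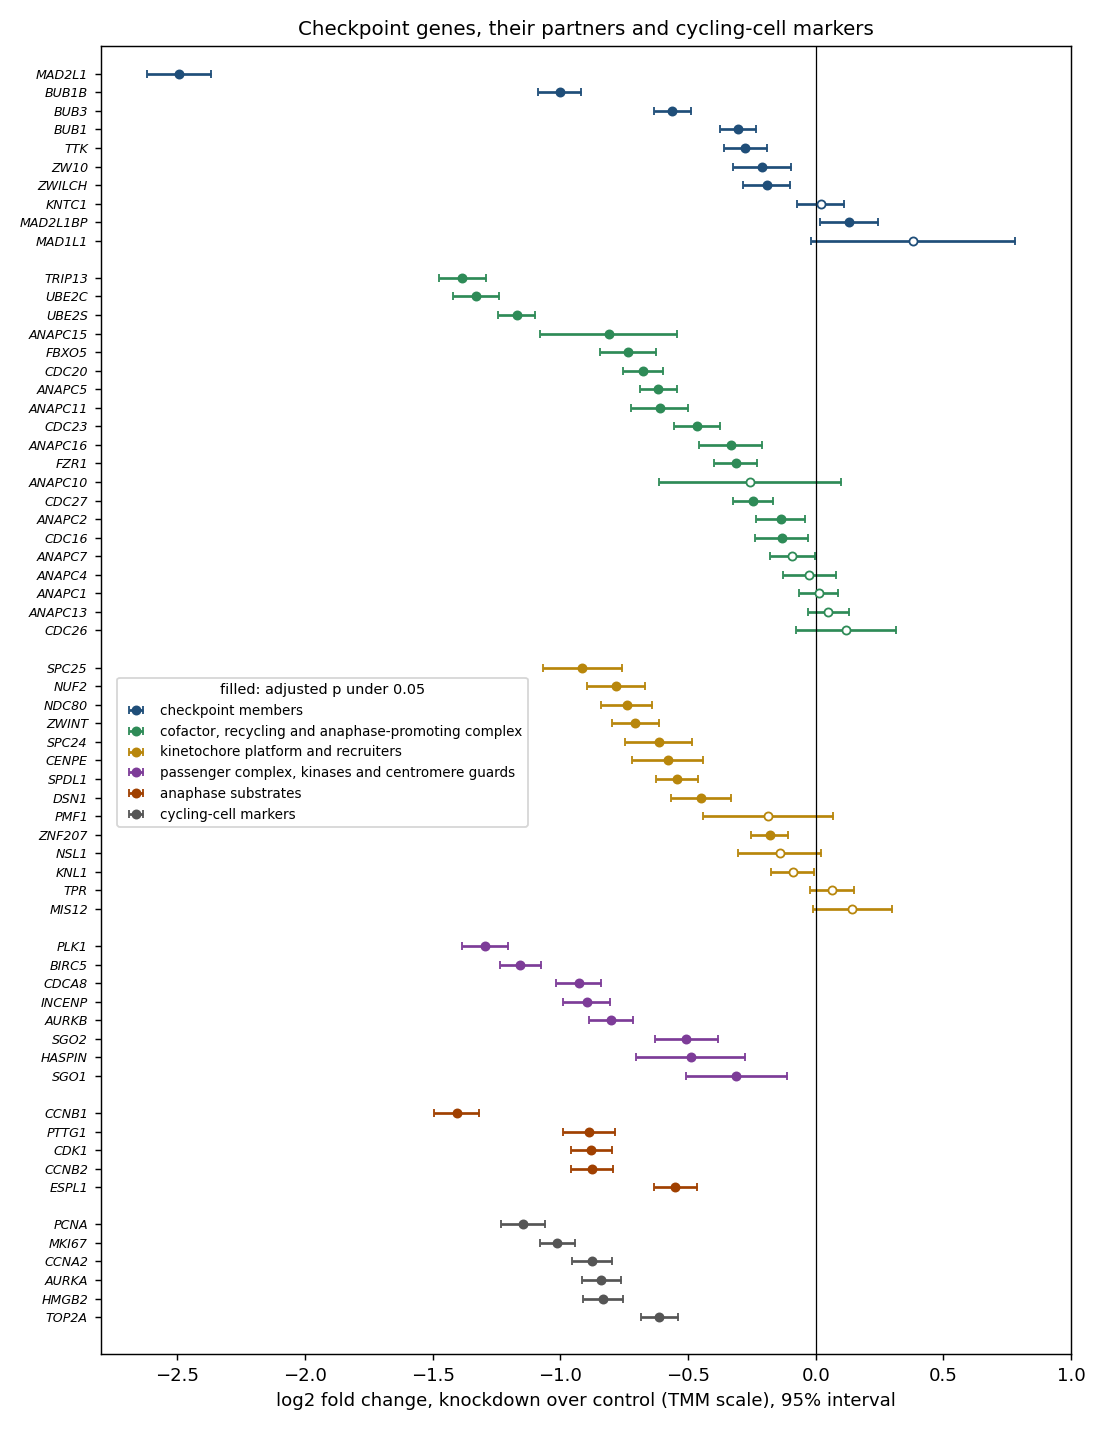
Log2 fold change of knockdown over control with its 95% interval (horizontal axis) for the 10 checkpoint genes, 47 partners by role and 6 cycling-cell markers (vertical axis); filled points have an adjusted p under 0.05. MAD2L1 is lower than all 53 other genes outside the checkpoint set, of which CCNB1 at -1.41 is the lowest.

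Markers of cycling cells fell too, with a larger median fall than that of the 10 checkpoint genes (-0.24). All 6 of 6 were called lower (30.9% of all tested genes), with a median of -0.86, a range of -1.15 (PCNA) to -0.61 (TOP2A) and MKI67 at -1.01. Their part in the checkpoint genes' falls was not tested. Set against the geometric mean of the 6 markers inside each library, a comparison chosen after seeing the data, MAD2L1 was still lower by a log2 difference of -1.61 and BUB1B by -0.11. The other 8 were higher by 0.33 (BUB3) to 1.28 (MAD1L1), with BUB1 at 0.58, TTK at 0.61 and KNTC1 at 0.91. In none of the 10 did the groups overlap, but 86.5% of all tested genes did not overlap on this measure either. Since the markers fell, 84.5% of tested genes lay higher without overlap and 2.04% lay lower, as MAD2L1 and BUB1B did. Each two-sided exact permutation p was 0.1, the smallest possible.

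Genes with the pattern most like MAD2L1 were sought by the distance of log2 CPM, centred on the control mean, over the 6 libraries. The nearest 5 were FZD6 (distance 0.201), RFC3 (0.253), CCM2 (0.296), AIMP2 (0.372) and NCAPG2 (0.390). FZD6, a Wnt receptor, had nearly the same levels, 85.1 ± 2.90 CPM in control and 14.2 ± 1.81 in knockdown (SD, n = 3). RFC3, of the replication clamp loader, went from 81.7 ± 0.771 to 15.3 ± 1.05 CPM.

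MAD2L1 also carries the 7-base word CTATTGA in its 3′ UTR, a word that an earlier scan of these same libraries had picked out by fold change, so its presence is no independent evidence. The match is at chr4:120059605-120059611 on GRCh38, minus strand, and starts at base 510 of the 3′ UTR. It is shown in capitals with 10 bases on each side, beside the match in RFC3, a gene of like pattern, at chr13:33836469-33836475, plus strand, base 177 of its 3′ UTR. Both are from GENCODE v29 transcripts.
MAD2L1: atagttttccCTATTGAatcagtttcc
RFC3: tgctcctataCTATTGAagtatgtagt
Searched on the transcript strand only, the word was in the 3′ UTR of 1 of the 10 checkpoint genes and 2 of the 5 genes most like MAD2L1, RFC3 and FZD6, against 7.79% of 13291 tested genes with a 3′ UTR. Those 5 genes were picked for a fall like that of MAD2L1, so their share is no independent evidence either. The 7.79% is not matched for 3′ UTR length, which is 4513 bases in MAD2L1. It was not in that of BUB1B or BUB3, nor in those of CCM2, AIMP2 and NCAPG2. Of the 47 partners 5 carried it, and these spanned the range of fold changes: PLK1 at -1.29, ZWINT at -0.71, ANAPC16 at -0.33, KNL1 at -0.09 and TPR at 0.06. A match describes letters in the chosen transcript and not a bound site.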

How the data were processed

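RNA from 6 samples, 3 control and 3 knockdown, was measured by RNA sequencing; per the labels' protocols, RNAiso Plus was used for total RNA and a TruSeq kit for the libraries. The authors deposited raw read counts per Ensembl gene, with no normalization. Trim Galore 0.6.6, STAR 2.7.0d, featureCounts 2.0.1, DESeq2 1.30.1 and the hg38 build are named in the submitters' processing notes. The annotation release, strand setting and treatment of reads with several alignments remain not given in the sources used here, so counts of overlapping genes are uncertain.

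Genes were filtered with filterByExpr (minimum count 10) of edgeR 4.0.16 in R 4.3.3, scaled by TMM and tested over all 17223 genes with robust quasi-likelihood fits and group as the only term. The test against a minimum fold used glmTreat at 1.5-fold. Adjustment was by Benjamini-Hochberg, with calls under 0.05. SE was derived from the test statistic. The fit was tested on simulated counts. The common biological coefficient of variation was 4.67%. Exact permutation tests used Python 3.11.15. Names came from a table of gene names, exon lengths and shared exonic bases from GENCODE v29, and promoters from RefSeq. Alternatives were RLE and upper-quartile factors, library size alone, no filter, DESeq2 1.42.0, the replicate number as a block, thinning to the smallest library and leaving out each library.

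Named genes were all 10 checkpoint genes, a fixed list of 47 partners (up to 3 called in each direction per role, and CDC20, TRIP13, KNL1, SPDL1 and ANAPC15 whatever their values), 6 cycling-cell markers and the 5 genes most like the member with the largest change. ANAPC1, ESPL1 and the partners named for the 3′ UTR word, were chosen after their values were seen. The genes and lists were chosen with earlier results of these data known.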

Additional observations from a re-analysis of the deposited data

How the results depend on the processing

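MAD2L1, BUB1B, BUB3, BUB1 and TTK kept their call and direction in all 13 alternatives, and ZW10 and ZWILCH in 12, losing it with library size alone. The count of checkpoint genes called higher went from 1 to 0 with RLE factors, without a filter, with DESeq2 and with thinned counts, to 3 with library size alone, and ran from 0 to 1 when 1 library was left out. Partners called higher went from 0 to 3 with upper-quartile factors and 6 with library size alone, and ran from 0 to 1 when 1 library was left out. Over all 17223 tested genes, 5905 were called higher with upper-quartile factors and 6986 with library size alone. The median of the 10 genes was -0.18 with upper-quartile factors and -0.0884 with library size alone, and ran from -0.28 to -0.23 when 1 library was left out. KNTC1, which was not called, changed sign with DESeq2 (-0.00547), without control replicate 3 (-0.0120) and without knockdown replicate 1 (-0.0277), and ran from -0.0277 to 0.0345 when 1 library was left out. The cause was not tested. With the replicate number as a block, 7 checkpoint genes were lower and 1 higher, 36 partners lower and 0 higher, the median was -0.24, and none of the 10 checkpoint genes changed call (calls over all tested genes went from 5317 to 5263 lower and from 5295 to 5214 higher). For the 8 ratios, same-numbered libraries gave a sign-flip p of 0.25, the smallest that 3 pairs allow. Deviations of same-numbered libraries correlated at -0.000751, -0.00642 and -0.0235, which gives no sign of pairing. Depth limits MAD1L1, with 73 to 98 reads per library.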

Other observations

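Rows that share a name with the checkpoint genes were almost empty. MAD2L1-DT, the non-coding transcript that starts next to MAD2L1 in the opposite direction, had 9, 15 and 13 counts in the control libraries and 9, 5 and 7 in the knockdown libraries. It was under the filter and was not tested. The pseudogene MAD2L1P1 had at most 6 counts in a library, and BUB1P1 and BUB3P1 had 0 in all 6, so few reads were assigned to these copies.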
